A study of Mus musculus with 6 samples.

Results

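Ras GTPase-activating proteins (RasGAPs) switch off Ras, and 8 genes that encode them were followed in the hippocampus of mice that had lost CBP, the acetyltransferase encoded by Crebbp, from excitatory neurons. The genes were Rasal1, Rasa4, Rasa2, Rasa3, Dab2ip, Rasal2, Rasa1 and Nf1, that is, 8 of the 55471 genes in the deposited table. They were chosen by name as RasGAP genes, with Rasal1 at their head because its level was already known to differ in this same comparison. Their differences between the groups are therefore given as a description, with no test read from them. All 8 passed the filter on low counts, which 17981 genes passed in all.

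The 6 libraries were made from total RNA of whole hippocampus and fall into 3 Control and 3 CBP-ifKO libraries, CBP-ifKO being an inducible knockout restricted to forebrain neurons. The mice were C57BL/6 and 3 to 6 months old. CBP-ifKO mice carried the floxed Crebbp alleles together with the Camk2a_creERT2 driver, a Cre recombinase that tamoxifen activates in excitatory neurons of the forebrain, and had received tamoxifen 5 times on alternate days at 20 mg/mL in corn oil. The protocol describes the Control mice as littermates without the driver that were also given tamoxifen, whereas a description field of the same libraries names the driver. The study's methods describe libraries of mice without further treatment as pools of hippocampi from several females. The labels give neither sex nor pooling. The p-values below set the difference between the groups against the spread between these samples, whatever number of animals each holds. If the samples are pools, the spread between single animals was not measured. Interneurons and glia lie outside the reach of the driver and are part of every library.

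Ras is a small membrane GTPase that is active when it carries GTP and passes signals from growth factor receptors and synaptic calcium to the RAF, MEK and ERK kinases. Exchange factors load Ras with GTP, and RasGAPs end the signal by speeding GTP hydrolysis. In hippocampal neurons this cycle is known for its part in synaptic plasticity, and loss of neurofibromin, the product of Nf1, is known to disturb learning. The members differ in what brings them to the membrane. Rasal1 and Rasa4 (also named CAPRI) respond to calcium through paired C2 domains, Rasa2 and Rasa3 bind inositol phosphates and phosphoinositides, and Rasa1 (p120 RasGAP) docks on phosphorylated receptors through SH2 domains. Dab2ip and Rasal2 are scaffold-like RasGAPs, and neurofibromin is a very large protein held at the membrane by SPRED partners.

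The promoters are shown first because they are the regulatory sequence nearest to the levels compared here. Dab2ip was chosen as a member with lower levels in CBP-ifKO and Nf1 as one with nearly equal levels. RefSeq windows on GRCm38.p6, from 250 bases before to 50 bases after an annotated transcript start, were at hand for 7 of the 8 members, Rasal1 being the exception, and Dab2ip had 4 of the 10 windows. Below are the Dab2ip window at chr2:35558208-35558507, plus strand, at the 5′ end of the gene, the Dab2ip window at chr2:35582590-35582889, plus strand, at an internal start, which had the highest GC content of the 4, and the Nf1 window at chr11:79339642-79339941, plus strand, across the 5′ end of the gene. All are written 5′ to 3′ with every GC box, the letters GGGCGG or their complement CCGCCC, in capitals.
Dab2ip 5′ end: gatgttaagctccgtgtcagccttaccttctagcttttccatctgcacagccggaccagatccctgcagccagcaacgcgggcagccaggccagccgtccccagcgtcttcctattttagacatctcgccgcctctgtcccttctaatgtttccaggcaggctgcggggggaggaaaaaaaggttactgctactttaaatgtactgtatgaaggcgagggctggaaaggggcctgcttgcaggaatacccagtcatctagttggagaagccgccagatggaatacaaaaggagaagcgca
Dab2ip internal start: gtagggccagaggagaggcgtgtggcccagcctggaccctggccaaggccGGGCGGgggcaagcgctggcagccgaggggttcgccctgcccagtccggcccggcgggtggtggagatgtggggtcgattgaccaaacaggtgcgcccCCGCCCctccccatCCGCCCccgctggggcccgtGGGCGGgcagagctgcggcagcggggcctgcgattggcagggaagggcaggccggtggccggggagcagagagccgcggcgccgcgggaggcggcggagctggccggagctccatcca
Nf1: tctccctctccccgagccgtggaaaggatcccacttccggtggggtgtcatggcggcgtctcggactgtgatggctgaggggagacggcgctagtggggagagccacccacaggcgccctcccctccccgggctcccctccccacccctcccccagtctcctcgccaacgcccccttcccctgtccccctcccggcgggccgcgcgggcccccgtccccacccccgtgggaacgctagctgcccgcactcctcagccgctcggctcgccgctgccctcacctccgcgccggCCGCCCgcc
The Dab2ip window at the 5′ end had a GC content of 54.33% with 12 CG dinucleotides and no GC box. The internal Dab2ip window had a GC content of 76.67% with 29 CG dinucleotides and 4 GC boxes, and the Nf1 window 75.67% with 30 CG dinucleotides and 1 GC box. The median of all 32851 windows was 52.67% GC and 7 CG dinucleotides. The remaining pair of Dab2ip windows, both at internal starts, had 65.67% and 62.33% GC, and the counts do not tell from which start the transcripts came. Searched on both strands, GGGCGG was in 8 of the members' 10 windows and in 35.7% of all windows. The cAMP response element TGACGTCA, the site bound by CREB, which recruits CBP, was in none of the 10 windows and in 1.79% of all windows. The shorter CREB site TGACG, which lies within that element and is read as CGTCA on the other strand, was also in none of the 10 and in 20.8% of all windows. These are matches of letters in short windows only.

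The targeted gene was checked first. Crebbp stood at 208.6, 156.4 and 208.5 CPM (counts relative to the TMM-scaled library total) in Control replicates 1, 2 and 3 and at 108.6, 87.1 and 99.4 CPM in the CBP-ifKO replicates, and the groups did not overlap. Its log2 fold change was -0.96 (adjusted p = 3.63e-05 in edgeR, SE 0.10), a partial loss in tissue that still holds cells without the driver. The recombined allele still encodes a truncated protein, per the study's methods. Esr1, part of which is built into creERT2, was at 5.65 to 6.29 CPM in Control and 63.6 to 69.4 CPM in CBP-ifKO, and Arsi, the neighbour of Camk2a, was at 0.469 to 0.945 and 4.67 to 6.34 CPM. The driver was thus seen in the CBP-ifKO libraries and not in the Control libraries. Ep300, which encodes p300, the paralogue of CBP, had a log2 fold change of 0.18 (SE 0.098, adjusted p = 0.321). Library totals ran from 10199008 to 14950257 counts, and the 8 members took between 10441 and 15251 of these. Over all genes, 1149 of 17981 passed an adjusted p of 0.05 in edgeR's quasi-likelihood test, which is 6.39%, with 897 lower and 252 higher in CBP-ifKO (4.99% and 1.4%). Scaled by library totals alone, the counts were 667 lower and 514 higher, and with the GC and length offsets described below 729 lower and 380 higher.

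Of the 8 RasGAP genes, Rasal1 and Dab2ip were past this threshold, both lower in CBP-ifKO, beside 4.99% of all tested genes in that direction. The choice of the members used this contrast, so nothing is read from that count. Rasal1 stood apart in size: its CBP-ifKO level was 55.2% of the Control level, against 78.8% for Dab2ip and 89.2% or more for each of the other 6. The median log2 fold change of the 8 was -0.12, with 6 negative and 2 positive, and that of all tested genes was -0.0033. In 5 members, Rasal1, Dab2ip, Rasal2, Rasa3 and Rasa1, every CBP-ifKO library lay below every Control library, a pattern that 13.9% of all tested genes had, against 25.6% whose groups did not overlap in either direction.

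**Figure D1:**
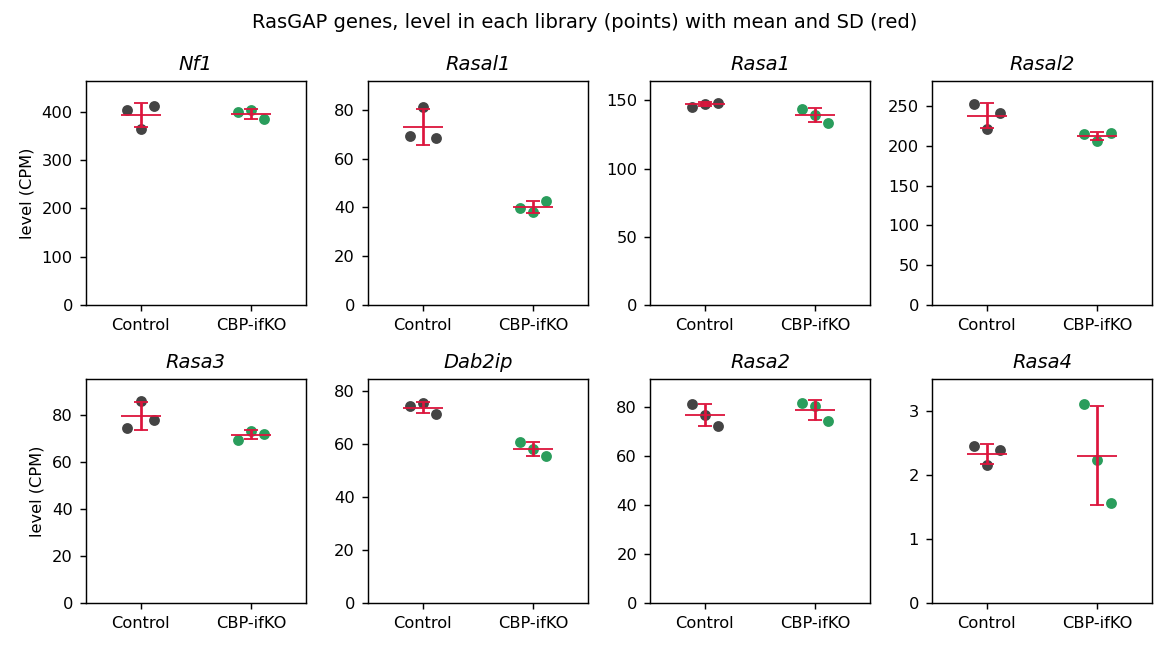
Level of each of the 8 RasGAP genes in every library, in TMM-scaled CPM on the vertical axes, which start at 0, with 3 Control and 3 CBP-ifKO libraries as points and the group mean and SD as a bar. The CBP-ifKO points of Rasal1 lie between 38.2 and 42.7 CPM and its Control points between 68.3 and 81.3 CPM, while the points of Nf1 and Rasa2 interleave.

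Rasal1 (ENSMUSG00000029602, chr5:120648812-120679597 on the plus strand of GRCm38) encodes the RasGAP that moves to the plasma membrane with each rise in calcium. It was at 69.1, 81.3 and 68.3 CPM in Control replicates 1, 2 and 3 and at 39.7, 38.2 and 42.7 CPM in CBP-ifKO replicates 1, 2 and 3. All 3 CBP-ifKO libraries were close to each other and far below the lowest Control library. These levels rest on 689 to 946 counts per Control library and 410 to 581 per CBP-ifKO library. The means were 72.9 ± 7.25 CPM (SD, n = 3) and 40.2 ± 2.30 CPM (SD, n = 3), and the log2 fold change was -0.86 (SE 0.081), with a 95% interval from -1.03 to -0.69. Only 1.01% of the tested genes had a more negative value. Its exons share no bases with another annotated gene.

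Rasa4 (ENSMUSG00000004952, chr5:136083916-136111860, plus strand), the closest relative of Rasal1 among the members and likewise recruited by calcium, was the least abundant. It was at 2.44, 2.15 and 2.38 CPM in Control and at 3.10, 2.23 and 1.56 CPM in CBP-ifKO. The CBP-ifKO libraries lay on both sides of the Control libraries, and with 19 to 34 counts per library the interval of the log2 fold change, -0.60 to 0.54 around -0.032, is wide. The value of Dab2ip lies inside this interval, so a difference of that size was not detectable at this depth. No comparison with Rasal1 is read from the interval. With single libraries left out, the log2 fold change of Rasa4 ran from -0.27 to 0.18. Its exons share 2.43% of their bases with Gm15701 on the opposite strand and 1.096% with the microRNA gene Mir7035.

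Rasa2 and Rasa3 encode the members with an inositol phosphate-binding PH domain, and Rasa3 also acts on Rap1. Rasa2 (ENSMUSG00000032413, chr9:96539300-96631617, minus strand) was at 81.4, 76.6 and 72.4 CPM in Control and at 81.6, 80.4 and 74.2 CPM in CBP-ifKO. The groups overlapped, and the log2 fold change was 0.035 (SE 0.069, 95% interval -0.11 to 0.18). Rasa3 (ENSMUSG00000031453, chr8:13566948-13677603, minus strand) was at 74.6, 86.0 and 78.1 CPM in Control and at 69.5, 73.3 and 71.8 CPM in CBP-ifKO. Its groups were apart by little more than 1 CPM, between the highest CBP-ifKO and the lowest Control library. The log2 fold change of Rasa3 was -0.15 (SE 0.069, 95% interval -0.30 to -0.0063).

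Dab2ip (ENSMUSG00000026883, chr2:35558266-35730994, plus strand) encodes a scaffold RasGAP that also binds Dab1 of the Reelin pathway. It was at 74.2, 75.4 and 71.2 CPM in Control and at 60.7, 58.2 and 55.2 CPM in CBP-ifKO. The replicates were tight in both groups and the gap between the groups was wider than either group's range. The means were 73.6 ± 2.16 and 58.0 ± 2.73 CPM (SD, n = 3), with a log2 fold change of -0.34 (SE 0.067, 95% interval -0.49 to -0.20). Its exons share 4.15% of their bases with Gm13446 on the opposite strand, and whether the counting used strand was not stated. Rasal2 (ENSMUSG00000070565, chr1:157135182-157412595, minus strand), the other scaffold-like member, was at 251.6, 221.2 and 240.4 CPM in Control and at 214.3, 205.8 and 216.2 CPM in CBP-ifKO. The lowest Control library was only just above the highest CBP-ifKO library, and the log2 fold change of Rasal2 was -0.16 (SE 0.061, 95% interval -0.29 to -0.037).

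Rasa1 and Nf1, the members best known from human disease of blood vessels and of nerve sheaths, had log2 fold changes near 0, as did Rasa2. Rasa1 (ENSMUSG00000021549, chr13:85214780-85289130, minus strand) was at 145.4, 147.3 and 148.4 CPM in Control and at 143.8, 139.6 and 133.8 CPM in CBP-ifKO. The Control libraries lay so close together that the groups were apart, although the log2 fold change was -0.081 (SE 0.058, 95% interval -0.20 to 0.042). Nf1 (ENSMUSG00000020716, chr11:79339693-79581612, plus strand) was at 404.1, 364.6 and 411.7 CPM in Control and at 399.2, 404.7 and 384.5 CPM in CBP-ifKO. All 3 CBP-ifKO libraries fell inside the Control range, and the log2 fold change was 0.010 (SE 0.059, 95% interval -0.12 to 0.14).

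Levels can be set beside each other between genes only per length, and RPKM (CPM per kilobase of the deposited exon length) gave the order. In Control, Nf1 was highest at 24.8 ± 1.60 RPKM (SD, n = 3), followed by Rasal1 at 20.6 ± 2.05, Rasa1 at 20.1 ± 0.20, Rasal2 at 17.3 ± 1.12, Rasa3 at 15.6 ± 1.14, Dab2ip at 8.80 ± 0.26, Rasa2 at 4.84 ± 0.28 and Rasa4 at 0.31 ± 0.021 RPKM. The ranges of the Control libraries overlapped between Rasal1 and Rasa1 and between Rasal2 and Rasa3, so these neighbours are not ordered beyond their spread. The Control libraries of Nf1 and Rasal1 did not overlap, although the lowest of Nf1 and the highest of Rasal1, both 23.0 RPKM when rounded, nearly met. In CBP-ifKO, Rasal1 moved from the second to the fifth place at 11.4 ± 0.65 RPKM, below Nf1 at 24.99 ± 0.66, Rasa1 at 19.0 ± 0.69, Rasal2 at 15.4 ± 0.40 and Rasa3 at 14.0 ± 0.38 RPKM. Dab2ip at 6.93 ± 0.33, Rasa2 at 4.97 ± 0.25 and Rasa4 at 0.31 ± 0.10 RPKM kept their places, and no neighbours overlapped in CBP-ifKO. Rasal1 made up 18.3% ± 1.70 of the members' summed RPKM in Control and 11.7% ± 0.77 in CBP-ifKO. The sum itself was 112.4 ± 0.74 and 97.0 ± 1.09 RPKM.

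**Figure D2:**
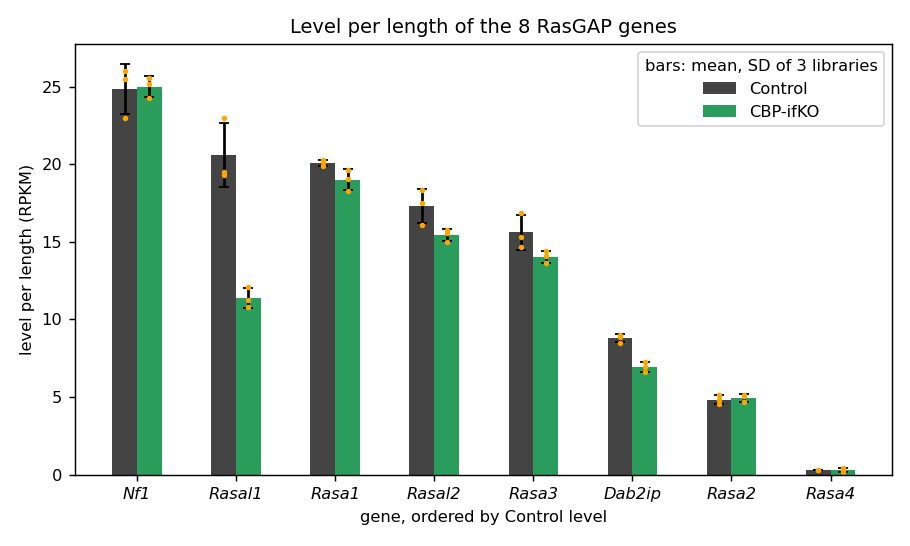
Level per length of the 8 RasGAP genes, in RPKM on an axis that starts at 0, with the mean of 3 libraries as a bar, the SD as an error bar and the libraries as orange points, for Control and CBP-ifKO side by side. Rasal1 goes from 20.6 RPKM in Control, between Nf1 and Rasa1, to 11.4 RPKM in CBP-ifKO, below Rasa3, and Rasa4 lies far below the rest at 0.31 RPKM in both groups.

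A pair of further quantities moved with these differences. The first was the base composition of the transcripts. Over all tested genes, the median log2 fold change went from 0.072 in the lowest of 10 equal bins of GC content to -0.19 in the highest, 57.2% to 78.3% GC, where 16.5% of genes passed the threshold against 3.01% in the lowest bin. Rasal1 at 60.7% GC and Dab2ip at 58.9% GC were the members in that highest bin. Rasa4 at 55.2%, Rasa3 at 52.7%, Rasal2 at 46.9%, Nf1 at 44.9%, Rasa1 at 41.9% and Rasa2 at 39.8% GC followed. With offsets for GC content and transcript length estimated in each library, the log2 fold change of Rasal1 was -0.65 (SE 0.064) and that of Dab2ip -0.15 (SE 0.070). Rasal1 remained past the threshold and Dab2ip did not. The choice of the members used this contrast, so these sides of the threshold are a description only. Such offsets also take up any difference between the groups that follows GC content or length. The part of base composition in either difference was not tested.

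**Figure D3:**
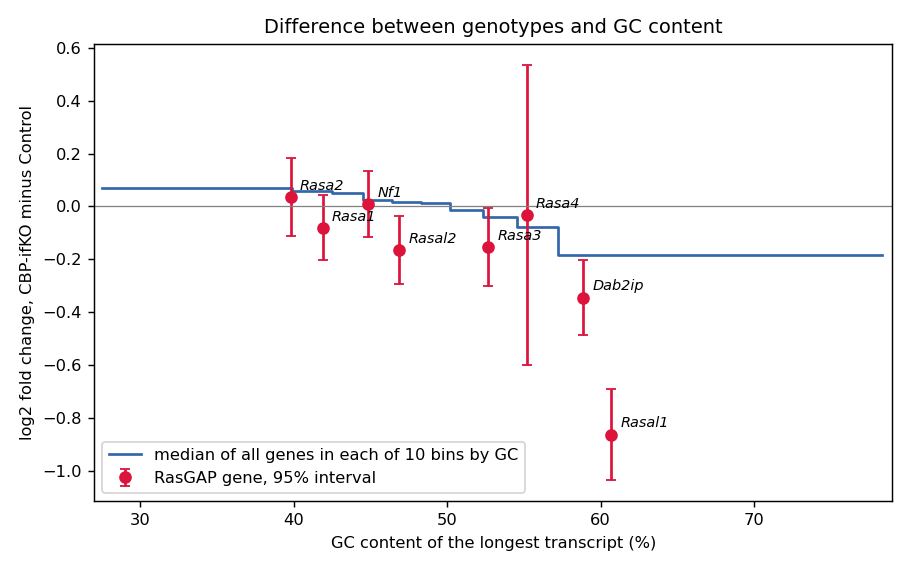
Log2 fold change of the 8 RasGAP genes, CBP-ifKO minus Control, with 95% intervals, against the GC content of the longest transcript in percent, beside the median of all tested genes in 10 equal bins of GC content. Rasal1 at -0.86 lies far below the median of its bin, -0.19, and Dab2ip at -0.34 nearer to it.

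The second was the level of cell type markers. Of 5 markers of CA1 pyramidal neurons, 4 fell in CBP-ifKO, among them Wfs1 with a log2 fold change of -1.19 (adjusted p = 8.34e-07) and Fibcd1 with -0.63 (adjusted p = 1.48e-05), and the summed level of the list was 349.2 to 361.2 CPM in Control and 221.6 to 235.8 CPM in CBP-ifKO. Of 5 CA3 markers 1 fell, with sums of 311.1 to 322.6 and 258.2 to 274.9 CPM, and of 5 dentate granule cell markers 1 rose and 2 fell, with sums of 244.9 to 277.6 and 272.1 to 302.9 CPM. Of 5 general excitatory neuron markers 1 fell (976.6 to 1059 and 824.1 to 982.1 CPM), of 7 interneuron markers 2 fell (541.1 to 565.1 and 484.4 to 512.4 CPM), and of 4 markers of oligodendrocyte precursors 2 fell (125.4 to 144.1 and 100.1 to 105.9 CPM). No marker of astrocytes, oligodendrocytes, microglia or endothelium passed the threshold, nor did any tested marker of choroid plexus, striatum or thalamus. No marker was at 0, although Folr1 of choroid plexus and Adora2a of striatum were too low to be tested. In bulk tissue, fewer cells of a type and less RNA per cell cannot be told apart, and the part of these markers in the differences of Rasal1 and Dab2ip was not tested.

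The rest of the Ras and Rap pathway was followed in 64 listed genes that are not members, of which 62 could be tested. Of these, 13 fell in CBP-ifKO and none rose, beside 4.99% of all tested genes lower and 1.4% higher. At an unadjusted p of 0.05 in edgeR the count was 28, of which 4 were higher in CBP-ifKO. Of all 17981 tested genes, 3816 were under that unadjusted p, in either direction. The lists were chosen with earlier results of these data known, so these counts are a description and nothing is read from them. DESeq2 called 11 genes, all of them among the 13, and with library totals as the only scaling the count was 8. The median log2 fold change was -0.12, with 47 genes negative and 15 positive. By role, 1 of 6 Ras GTPases, 1 of 7 Ras exchange factors, 2 of 12 adaptors and neurofibromin partners, 3 of 15 effectors and ERK cascade genes and 5 of 17 genes of the Rap branch passed the threshold. The medians of the lists ran from 0.044 for the exchange factors to -0.20 for the effectors and ERK cascade. The count of 13 depends on single libraries: it was 3 without Control replicate 3 and also 3 without CBP-ifKO replicate 2, 6 without CBP-ifKO replicate 3, 7 without CBP-ifKO replicate 1, 9 without Control replicate 1 and 15 without Control replicate 2. With the GC and length offsets it was 8, of which 7 were among the 13, and Mras, Lztr1, Ksr1, Ralgds and Rap1gap were among those lost. With the replicate block added to these offsets it was 15, of which 10 were among the 13, Mras and Lztr1 included.

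Among genes that set the state of Ras, Rasgrp1, an exchange factor opened by diacylglycerol and calcium, was at 654.9 to 717.8 CPM in Control and 537.2 to 612.5 CPM in CBP-ifKO, a log2 fold change of -0.25 (adjusted p = 0.0212 in edgeR, SE 0.061). Mras, a Ras relative that forms a phosphatase complex with Shoc2, had -0.27 (SE 0.058, adjusted p = 0.0109). The classical Ras genes Hras and Nras did not pass. Upstream, Shc3, the neuronal Shc adaptor, fell by 0.35 on the log2 scale (SE 0.075, adjusted p = 0.00874), and Lztr1, an adaptor for the degradation of Ras, fell by 0.24 (SE 0.066, adjusted p = 0.0373). Both had groups that did not overlap, and Spred1, Spred2 and Spred3, the membrane partners of neurofibromin, did not pass. Spred2 had -0.34 (SE 0.11, adjusted p = 0.067 in edgeR), with groups that overlapped. It passed with no filter on low counts, with the replicate block, with block and offsets together, and without Control replicate 2.

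Downstream of Ras, Rin1 differed most among the pathway genes. Rin1, an effector abundant in forebrain neurons that binds active Ras and activates Rab5 and Abl kinases, was at 63.6, 66.9 and 66.1 CPM in Control and at 44.5, 41.0 and 41.1 CPM in CBP-ifKO. The groups were far apart, with means of 65.5 ± 1.76 and 42.2 ± 1.99 CPM (SD, n = 3) and a log2 fold change of -0.64 (adjusted p = 6.5e-05 in edgeR, SE 0.070). Ralgds, the exchange factor that links Ras to Ral, fell by 0.31 (SE 0.080, adjusted p = 0.0296), and Ksr1, a scaffold of the ERK cascade, fell by 0.28 (SE 0.070, adjusted p = 0.0263), with 2.62% of its exon bases shared with Gm11201. None of the RAF, MEK and ERK kinase genes passed the threshold as reported. Mapk3, an ERK gene, was at its edge with -0.26 (SE 0.076, adjusted p = 0.0502 in edgeR), and its groups did not overlap. It passed with robust dispersions, the replicate block or either other filter, and without Control replicate 1. Map2k1 passed with the offsets and the replicate block together, and Araf without Control replicate 2.

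In the branch of Rap, the Ras relative that works at adhesion sites and synapses, 3 genes that switch Rap off were lower. Rap1gap2 was at 157.7, 175.3 and 174.7 CPM in Control and at 127.7, 119.0 and 131.3 CPM in CBP-ifKO, a log2 fold change of -0.43 (adjusted p = 7.76e-04 in edgeR, SE 0.065). Rap1gap followed with -0.34 (SE 0.078, adjusted p = 0.0138). Sipa1l1, a RapGAP of dendritic spines, had -0.38 (SE 0.089, adjusted p = 0.0177), although the lowest of its Control libraries, 328.4 CPM, was below the highest CBP-ifKO library, 331.6 CPM. Rap2a and Rap2b, small GTPases of the same branch, had -0.22 (SE 0.063, adjusted p = 0.0431) and -0.28 (SE 0.072, adjusted p = 0.0279). The value of Rap2b is uncertain, since 54.5% of its exon bases are shared with B430305J03Rik on the opposite strand. Of the 12 genes named, Rin1 and Rap1gap2 passed the threshold in all 17 alternative analyses, and each of the others was lost in at least 2 of them.

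**Figure D4:**
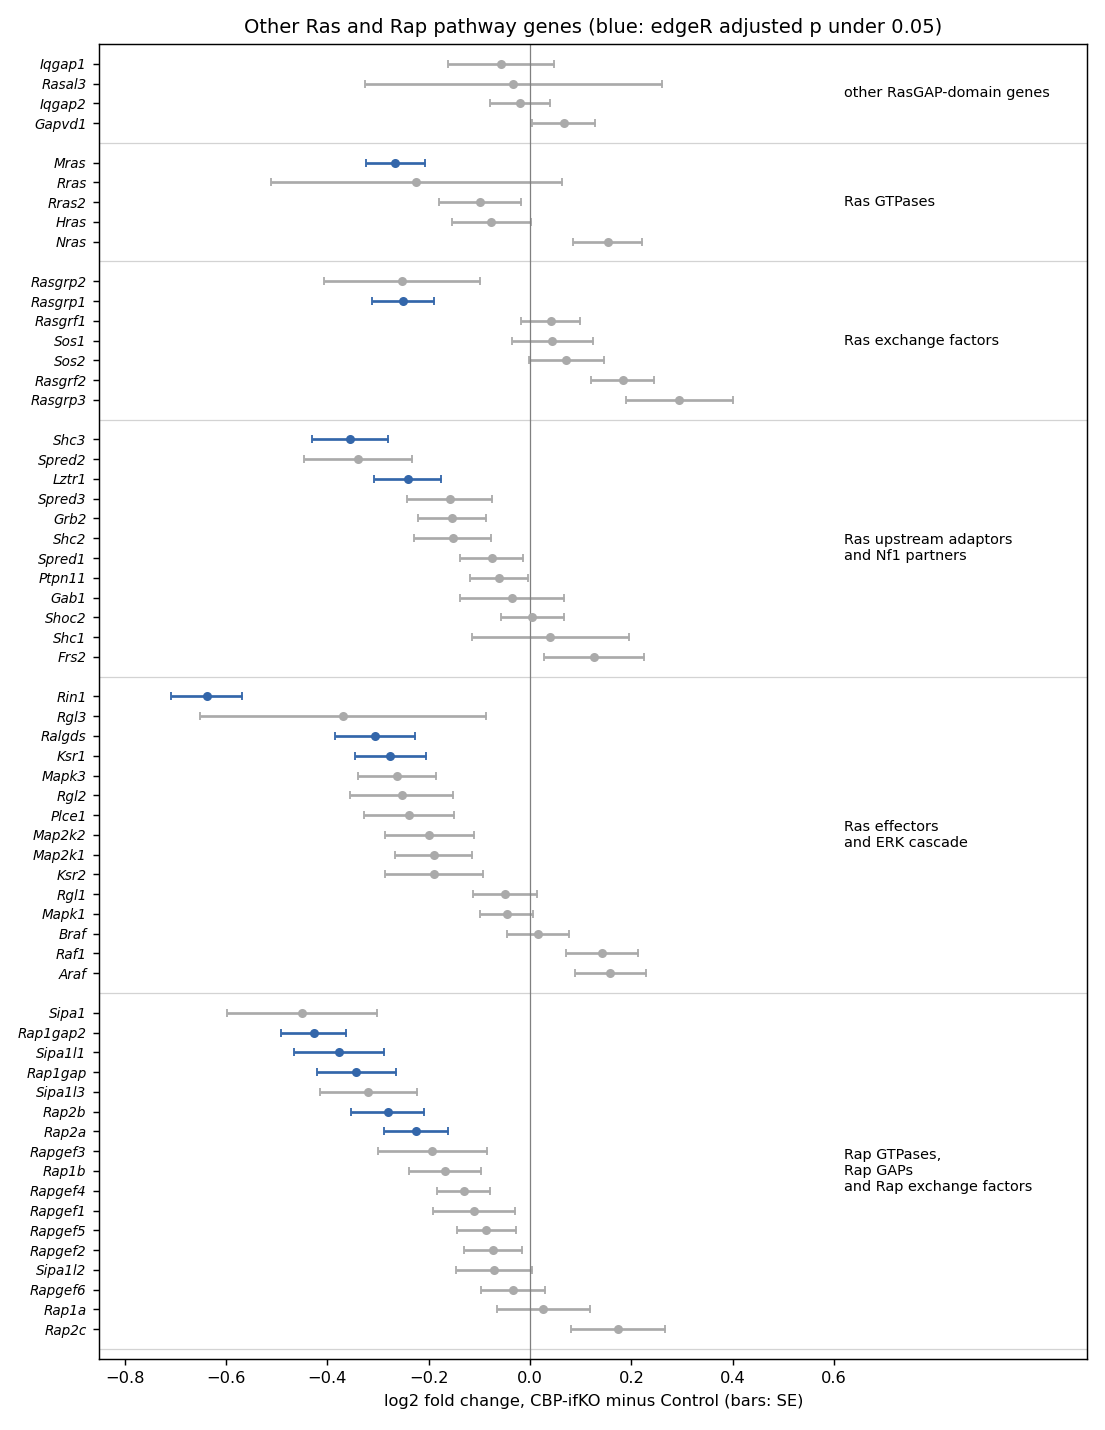
Log2 fold change, CBP-ifKO minus Control, of 60 of the 62 tested Ras and Rap pathway genes that are not members, 1 gene a line in 6 lists, with the SE as a bar and genes of adjusted p under 0.05 in blue. All 12 blue genes lie left of 0, with Rin1 at -0.64 farthest out, and the exchange factors lie on both sides.

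Around Rasal1 itself, 30 genes are annotated within 250 kb of either end, of which 10 could be tested. Of these, 1, Dtx1, passed the threshold, beside 6.39% of all tested genes. Dtx1 (chr5:120680202-120711927, minus strand), a ubiquitin ligase of the Notch pathway, ends 605 bases from the end of Rasal1, tail to tail with it. It was at 37.2, 42.1 and 37.4 CPM in Control and at 29.2, 28.0 and 29.9 CPM in CBP-ifKO, a log2 fold change of -0.43 (adjusted p = 0.00517 in edgeR, SE 0.083). The groups were apart, but with the GC and length offsets the value was -0.15 (adjusted p = 0.261), Dtx1 having a GC content of 62.5%. On the other side the nearest tested gene was Ddx54, an RNA helicase gene 20220 bases away, with a log2 fold change of -0.053 (adjusted p = 0.872). Of the 10 tested genes 9 were negative, with a median of -0.16, against 9113 of all 17981 tested genes and a median of -0.0033. The GC content of the 10 ran from 50.6% to 62.5%. Over all genes, the median was -0.076 in GC bin 9 of 10 and -0.19 in bin 10. The part of base composition in the neighbourhood was not tested.

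Finally, the genes whose pattern over the 6 libraries was most like that of Rasal1 were sought among 17432 genes with a mean of at least 1 CPM, by the root mean square difference of log2 CPM centred on each gene's own mean. The closest was Acvr1c, an activin receptor gene, at 0.076, with 54.5, 62.4 and 51.7 CPM in Control and 34.0, 33.3 and 34.6 CPM in CBP-ifKO. Crocc, which encodes rootletin of the ciliary rootlet, followed at 0.086, Gpd1, a glycerol 3-phosphate dehydrogenase gene, at 0.087, P2rx6, an ATP-gated channel gene, at 0.091 and Camkk2, a kinase activated by calcium and calmodulin, at 0.096. All 5, like Rasal1, had their highest level in Control replicate 2, a trait that the choice by likeness over these libraries favours. The 5 genes most like Dab2ip were Syt12 at 0.019, 2010111I01Rik at 0.021, Dgki at 0.027, Adgra2 at 0.031 and Gna12 at 0.034. These distances describe 6 libraries only.

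Under 17 alternative analyses, which changed the test, the scaling, the filter or the libraries, the log2 fold change of Rasal1 ran from -0.90 to -0.65 and that of Rin1 from -0.67 to -0.49. These alternatives reuse the libraries on which Rasal1 was chosen and describe the processing only. Dab2ip was negative in each, from -0.38 to -0.15, but was no longer past the threshold with the offsets or without CBP-ifKO replicate 3, where its log2 fold change was -0.30. The log2 fold changes of Rasal2, Rasa3 and Rasa1 were negative in each alternative, whereas those of Rasa4, Rasa2 and Nf1 changed sign in some.

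**Figure D5:**
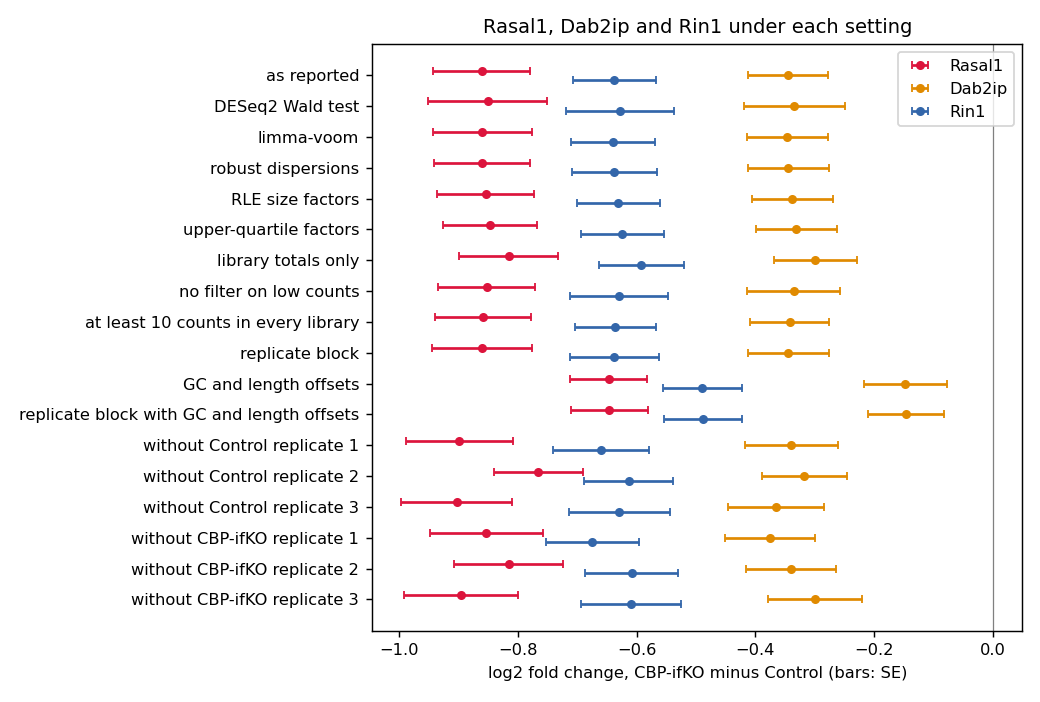
Log2 fold change, CBP-ifKO minus Control, of Rasal1, Dab2ip and Rin1 as reported and under 17 alternatives, 1 line for each, with the SE as a bar. The points of Rasal1 run from -0.90 to -0.65, those of Dab2ip from -0.38 to -0.15 and those of Rin1 from -0.67 to -0.49, all below 0.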

How the data were processed

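Total RNA from hippocampus of 3 Control and 3 CBP-ifKO samples was sequenced (Illumina, single-end, 50 bp). Per the labels and the study's methods, the authors checked reads with FastQC (0.11.8), trimmed adapters with Trim Galore (0.6.4), aligned to GRCm38 with STAR (2.6.1), dropped alignments of low mapping quality and counted exon reads per Ensembl gene with Rsubread. The values deposited by the authors are raw counts per gene, with an exon length and no normalization. Whether strand was used was not stated.

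From these counts, edgeR (4.0.16, R 4.3.3) gave the quasi-likelihood test between groups, with TMM scaling, filterByExpr (minimum count 10, minimum total 15) and p-values adjusted by Benjamini-Hochberg over all 17981 genes that passed, with 0.05 as the threshold. CPM used the TMM-scaled totals, and RPKM divided CPM by the deposited length. Symbols and coordinates came from GENCODE M21 (GRCm38), which matched 55230 of 55471 identifiers, and GC content from its longest transcripts. The 2 groups and their replicate numbers came from the sample titles. The coefficient of variation between replicates was 6.81%, and counting error exceeds it for genes of a few CPM. Pairs of replicates differed by more than sampling noise, so each counted once.

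The members and lists were chosen with earlier results of these data known. Named genes are all 8 members, Crebbp, Esr1 and Arsi, each pathway or neighbourhood gene past the threshold (2 listed pathway genes are counted but not reported here by name), the tested genes next to Rasal1, and the 5 genes most like Rasal1 and Dab2ip. Ep300, the marker genes and the pathway genes named as not past the threshold fall outside this rule, and their choice was made with their values in view. The 17 alternatives were the test of DESeq2 (1.42.0), which the study used (1.30.1), limma-voom (3.58.1), robust dispersions, RLE, upper-quartile or no scaling beyond totals, 2 other filters, a replicate block, offsets for GC content and length (natural splines, 5 degrees of freedom), both together, and leaving out each library.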

Additional observations from a re-analysis of the deposited data

How the results depend on the processing

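Of the 8 RasGAP genes, 2 were past the threshold as reported, and 1 to 3 when single libraries were left out: 1 without CBP-ifKO replicate 3 (Rasal1) and 3 without Control replicate 2 (Rasal1, Rasal2, Dab2ip). With the GC and length offsets the count was 1 (Rasal1), and with the replicate block added to the offsets it was 2 (Rasal1 and Rasal2, the latter at -0.15). The count of 13 pathway genes was 8 with library totals only and 8 with the offsets, but 15 with the offsets and the replicate block. With single libraries left out it ran from 3 to 15, while the count over all genes ran from 498 to 1326. The single neighbourhood gene, Dtx1, was lost with the offsets, so that the count was 0, as it was when the offsets were joined to the replicate block. In these edgeR fits 1 and 0 neighbourhood genes, respectively, had an unadjusted p under 0.05, and DESeq2 and limma-voom without offsets gave a count of 1.

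The log2 fold change of Rasa4 was 0.014 with library totals only, 0.081 with the offsets and 0.082 with the offsets and the replicate block, and ran from -0.27 to 0.18 with single libraries left out. That of Rasa2 ran from -0.0023 to 0.087 and that of Nf1 from -0.033 to 0.046 on leaving out a library. That of Ddx54 was 0.15 with the offsets, 0.15 with offsets and block, and ran from -0.19 to 0.16 on leaving out a library. Of 373 values for single genes under the alternatives, 296 kept direction and side of the threshold, 65 were no longer past it, 2 newly passed and 10 changed sign. The GC and length offsets were built from base composition and transcript length, and the cause of these changes was not tested.

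Whether the replicate numbers in the titles pair the libraries was not settled. The deviations of same-numbered libraries from their group means correlated at 0.077, 0.037 and 0.0022, and 3 of 6 libraries were closest to their own number. With the replicate block, 2 members, 16 pathway genes and 1 neighbourhood gene were past the threshold, and the log2 fold change of Rasal1 was -0.86. Over all genes 1210 passed with the block and 1149 without it. With the GC and length offsets the counts were 1818 with the block and 1109 without it. Depth limits mainly Rasa4, with 19 to 34 counts per library.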
